A study of Mus musculus with 9 samples.

Results

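The 10 genes followed here, Egr1, Fos, Fosl1, Fosl2, Jun, Junb, Jund, Ier2, Ier3 and Klf6, encode subunits of the transcription factor AP-1 and other products of the immediate early response. They were taken by gene symbol from a table of 15552 protein-coding genes, in which each had 1 row, and all 10 had enough counts to be tested. The 9 libraries came from MyC-CaP, 1 mouse prostate cancer cell line derived from a MYC-driven tumor, and every library carries the label NRG1-treated. Cells were held in medium without serum or calcium, and recombinant NRG1, a growth factor that binds the receptor HER3, was given at 15 ng/mL. RNA was taken after 0, 12 or 24 h, with 3 libraries labelled biological replicates at each time. The 0 h libraries had spent no time with NRG1. Libraries kept in the same medium without NRG1 for 12 or 24 h were not analysed here, so time in the medium and time with NRG1 cannot be told apart in any comparison.

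AP-1 is a dimer of basic leucine zipper proteins. JUN family members (Jun, Junb, Jund) pair with one another or with FOS family members (Fos, Fosb, Fosl1, Fosl2), while FOS proteins need a JUN partner to bind DNA. Immediate early genes are transcribed after a growth factor signal without new protein synthesis, largely through ERK, which acts on serum response factor and its ETS-domain partners. Fos and Egr1 RNA usually peaks within the first hour and decays quickly, whereas Fosl1 follows sustained ERK signaling, so the sampled times, 12 and 24 h, lie after the first burst.

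At 12 h, 9 of the 10 genes passed the test as higher than at 0 h, as did 13.6% of the 11373 tested genes, and Fos did not pass. The fold changes were modest, from 1.13-fold for Klf6 to 1.59-fold for Ier3 among the 9 that passed. At 24 h, Junb and Jund passed as higher than at 0 h (9.67% of tested genes passed higher) and Fos as lower (7.76%). Fosl1, Ier2 and Klf6 did not pass there, although all their 24 h libraries lay above all those at 0 h. In all 10 genes 12 h replicate 3 had the highest level of the 3 libraries at 12 h, and the size of the 12 h rise depended on that library to a different degree in each gene.

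Library totals ranged from 28467089 to 39239760 counts, and mitochondrial genes took 1.12% to 1.5% of them. Pairs of replicates differed by a chi-square of 3.40 to 10.3 per degree of freedom. The pairs with 12 h replicate 3 gave 10.2 and 10.3, against 4.33 for the other 12 h pair, and its sample quality weight in limma was the lowest of the 9, 0.542, followed by 0.653 for 0 h replicate 1 (the other 7 lay between 1.10 and 1.22). In the marker check, Foxa1, a transcription factor of luminal prostate cells, stood at 281 ± 6.01 CPM (counts scaled to library size after TMM normalization; SD, n = 3) at 0 h, Hoxb13, a prostate homeobox factor, at 84.3 ± 2.69 and the keratin Krt8 at 18.2 ± 1.30. Krt18 was at 0.253 ± 0.0774 CPM, and the epithelial adhesion genes Epcam and Cdh1 were at 0 (which allows up to 0.106 CPM in the shallowest library, by counting error only) and 0.0824 ± 0.0737 CPM, so not all markers of the labelled epithelial-like type were detected. The marker changes that follow are log2 fold changes ± SE from edgeR. Hoxb13 rose at 12 h by 0.28 ± 0.043 (adjusted p = 0.000168) and fell by 0.18 ± 0.042 from 12 to 24 h (adjusted p = 0.0227). Krt8 rose at 12 h by 0.30 ± 0.087 (adjusted p = 0.0169) and was 0.34 ± 0.086 above 0 h at 24 h (adjusted p = 0.0107), while Foxa1 did not pass at either time (0.02 and 0.05). Summed immune and endothelial markers were at most 1.11 and 0.359 CPM. Summed fibroblast markers, nearly all Pdgfra, were between 15.3 and 18.01 CPM. The 3 basal markers summed to 169 to 219 CPM at 0 h, 239 to 274 at 12 h and 151 to 179.5 at 24 h. Krt15 made up nearly all of that sum, and Krt14 and Trp63 each averaged at most 0.235 CPM at any time. Krt15 rose at 12 h by 0.44 ± 0.084 (adjusted p = 0.00115) and fell by 0.65 ± 0.085 to 24 h (adjusted p = 0.000329). The part of these epithelial markers in the 12 h rise of the 10 genes was not tested. In bulk RNA, a change in the number of expressing cells cannot be told apart from a change in RNA per cell.

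Promoter sequences in RefSeq (GRCm38.p6) were matched for 7 of the 10 genes, Fos, Fosl2, Jun, Junb, Jund, Ier3 and Klf6. Egr1, Fosl1 and Ier2 were not matched. The 250 bases before the transcription start are shown for Jun and Klf6, which share an element of 8 letters, for Fos, whose time course differed from the others, and for Ier3, which had the largest 12 h change. They lie at chr4:95052223-95052472 on the minus strand (Jun), chr13:5861239-5861488 on the plus strand (Klf6), chr12:85473640-85473889 on the plus strand (Fos) and chr17:35821463-35821712 on the plus strand (Ier3). Capitals mark the CCAAT box, the TATA element, the GC box and the TGACNTCA element on either strand, with letters given after the sequences.
Jun: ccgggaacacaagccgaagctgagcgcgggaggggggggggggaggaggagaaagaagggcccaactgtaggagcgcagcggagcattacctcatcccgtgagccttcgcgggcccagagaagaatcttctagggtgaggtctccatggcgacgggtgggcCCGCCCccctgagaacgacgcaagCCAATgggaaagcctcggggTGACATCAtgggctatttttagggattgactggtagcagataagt
Klf6: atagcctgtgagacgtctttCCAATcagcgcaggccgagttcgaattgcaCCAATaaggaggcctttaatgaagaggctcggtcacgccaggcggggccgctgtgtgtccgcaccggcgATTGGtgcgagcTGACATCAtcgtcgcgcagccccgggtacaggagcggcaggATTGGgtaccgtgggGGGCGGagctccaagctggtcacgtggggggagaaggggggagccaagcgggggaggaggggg
Fos: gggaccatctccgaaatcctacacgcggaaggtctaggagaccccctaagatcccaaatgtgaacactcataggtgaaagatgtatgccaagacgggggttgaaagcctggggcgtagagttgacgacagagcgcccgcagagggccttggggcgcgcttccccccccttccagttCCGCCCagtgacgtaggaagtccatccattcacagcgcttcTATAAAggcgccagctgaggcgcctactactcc
Ier3: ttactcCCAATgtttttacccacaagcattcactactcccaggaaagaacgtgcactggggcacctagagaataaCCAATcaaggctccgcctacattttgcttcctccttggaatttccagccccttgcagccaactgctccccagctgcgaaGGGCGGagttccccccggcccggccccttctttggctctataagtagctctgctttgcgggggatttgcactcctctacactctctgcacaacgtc

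Motifs were searched on both strands from 250 bases before to 50 bases after the start. TGACNTCA, a site type bound by AP-1 and ATF family proteins, was found as the letters TGACATCA in Jun at -45 to -38 and in Klf6 at -119 to -112. That is 2 of 7 genes, while 8.83% of 32851 promoters held it. The TATA element TATAAA lay at -33 to -28 in Fos and at 1 to 6 in Junb, against 13.6% of all promoters. The GC box GGGCGG was present in 5 of the 7 (35.7% of all promoters) and CCAAT in 4 (37.4%). Fosl2 alone among the 7 held the EGR element GCGNGGGCG, which was found in 5.55% of all promoters and overlapped its GC box. None of the 7 windows held the CArG box bound by serum response factor (1.63% of all promoters), the AP-1 element TGANTCA (7.81%), the CRE TGACGTCA (1.79%, counted within TGACNTCA) or the ETS core CCGGAA (14.9%). These are matches of letters within a short window. Bases more than 250 before the start and enhancers farther away were not examined, so motifs there would be missed. For Jund the RefSeq start lies upstream of the span that the files' annotation gives the gene, so its window may not be the promoter of the counted transcript.

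Levels of different genes were compared as CPM per kilobase of exon. Jund was the most abundant at 0 h, with 259 ± 8.63 CPM per kb (SD, n = 3). Junb followed with 86.6 ± 6.07, then Ier3 with 58.2 ± 5.72 and Jun with 51.3 ± 2.47. Ier3 and Jun were the only neighbors in this order whose 3 libraries overlapped. Klf6 (40.4 ± 0.534), Ier2 (29.7 ± 1.54), Fosl2 (23.0 ± 1.69), Fosl1 (12.4 ± 0.747), Fos (8.99 ± 0.568) and Egr1 (1.67 ± 0.0957) came after them. The genes best known as rapid responders, Fos and Egr1, were the lowest of the 10 in every 0 h library.

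The JUN family was first compared between 12 and 0 h. Jund, which encodes the JUN protein usually abundant in resting cells, is an intronless gene at chr8:70698949-70700616. Its CPM were 448, 428 and 421 at 0 h, 612, 618 and 633 at 12 h, and 533, 529 and 524 at 24 h. The 3 time points did not overlap, and the libraries within each lay close together. Jund rose at 12 h by a log2 fold change of 0.52 ± 0.035 (SE; adjusted p = 1.44e-07, edgeR with Benjamini-Hochberg adjustment), the smallest p of the 10. It was still higher at 24 h than at 0 h (0.29 ± 0.035, adjusted p = 1.71e-05) and lower at 24 h than at 12 h (-0.23 ± 0.034, adjusted p = 0.000849). On the opposite strand, 52.6% of its exonic bases are shared with Gm11175, which was not analysed here, and reads of the pair cannot be told apart if counting ignored strand.

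Junb, whose product binds DNA as AP-1 but is a weaker activator than JUN, lies at chr8:84974484-84978718. It had 214, 198 and 186 CPM at 0 h, 260.3, 260.4 and 274 at 12 h, and 228, 229 and 219 at 24 h. Again no library of one time point reached the range of another. Junb rose by 0.41 ± 0.046 at 12 h (adjusted p = 8.54e-06), stayed 0.18 ± 0.046 above 0 h at 24 h (adjusted p = 0.0123) and fell by 0.23 ± 0.046 between 12 and 24 h (adjusted p = 0.00732). At 24 h against 0 h it did not pass without 0 h replicate 3 (0.14, adjusted p = 0.0654) or 24 h replicate 1 (0.17, adjusted p = 0.0505), nor from 12 to 24 h without 24 h replicate 3 (-0.21, adjusted p = 0.0589). An overlap with Prdx2 on the other strand takes 7.52% of its exonic bases, and the log2 fold change of Prdx2 at 12 h was 0.02 (adjusted p = 0.814).

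Jun, the main activating JUN protein, is intronless and lies at chr4:95049034-95052222. Its CPM were 173, 159.9 and 158 at 0 h, 189, 186 and 218 at 12 h, and 181, 179.7 and 167 at 24 h. All 12 h libraries exceeded all 0 h libraries, with replicate 3 well above the other 2, and the 24 h libraries overlapped those at 0 h. Jun rose by 0.27 ± 0.055 at 12 h (adjusted p = 0.00153). Its values at 24 h were 0.10 ± 0.055 against 0 h (adjusted p = 0.222) and -0.17 ± 0.055 against 12 h (adjusted p = 0.085), neither past the threshold.

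Among the FOS family genes, Fosl1, which encodes FRA1, was the only one past 1.5-fold at 12 h. Fosl1 lies at chr19:5447547-5455946. It had 25.5, 26.6 and 23.6 CPM at 0 h, 37.96, 36.8 and 40.9 at 12 h, and 27.3, 27.4 and 26.7 at 24 h. The 12 h libraries stood clear of both other times, and the 24 h libraries lay just above those at 0 h without overlap. Fosl1 rose 1.53-fold at 12 h (log2 fold change 0.61 ± 0.058, adjusted p = 2.24e-06) and fell by 0.50 ± 0.058 from 12 to 24 h (adjusted p = 0.000171). The remaining 0.11 ± 0.060 at 24 h against 0 h did not pass (adjusted p = 0.255). Of the exonic bases of Fosl1, 57.2% are shared with Ccdc85b on the opposite strand, whose own log2 fold change at 12 h was 0.12 (adjusted p = 0.0983).

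Fosl2, which encodes FRA2, lies at chr5:32135801-32157842. It was counted at 224, 238 and 206 CPM at 0 h, 254, 231 and 292 at 12 h, and 202, 217 and 205 at 24 h. Replicate 2 at 12 h lay inside the 0 h range, and replicate 3 was the highest of all. The 12 h rise was 0.22 ± 0.067 (adjusted p = 0.0261). Fosl2 then fell by 0.31 ± 0.067 from 12 to 24 h (adjusted p = 0.0129), to a level -0.10 ± 0.067 from that at 0 h (adjusted p = 0.36). At 12 h it did not pass without 0 h replicate 1 (0.22, adjusted p = 0.0578) or 0 h replicate 3 (0.17, adjusted p = 0.106). The 24 h value against 12 h did not pass without 24 h replicate 1 (-0.29, adjusted p = 0.0712) or 24 h replicate 3 (-0.30, adjusted p = 0.0683).

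Fos, the classical immediate early AP-1 gene, lies at chr12:85473890-85477273. Its CPM were 20.1, 22.6 and 20.7 at 0 h, 22.5, 19.1 and 25.1 at 12 h, and 14.3, 14.9 and 15.1 at 24 h. The 12 h libraries spread on both sides of the 0 h libraries, while the 24 h libraries were below both. The 12 h difference was 0.07 ± 0.084 (adjusted p = 0.594). Fos fell by 0.52 ± 0.087 from 0 to 24 h (adjusted p = 0.000467) and by 0.59 ± 0.086, just past 1.5-fold, from 12 to 24 h (adjusted p = 0.000829). The fourth family member, Fosb, was low at 1.62 ± 0.0989, 2.23 ± 0.297 and 1.81 ± 0.311 CPM over the 3 times, and its 12 h difference of 0.45 ± 0.19 did not pass (adjusted p = 0.102).

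**Figure D1:**
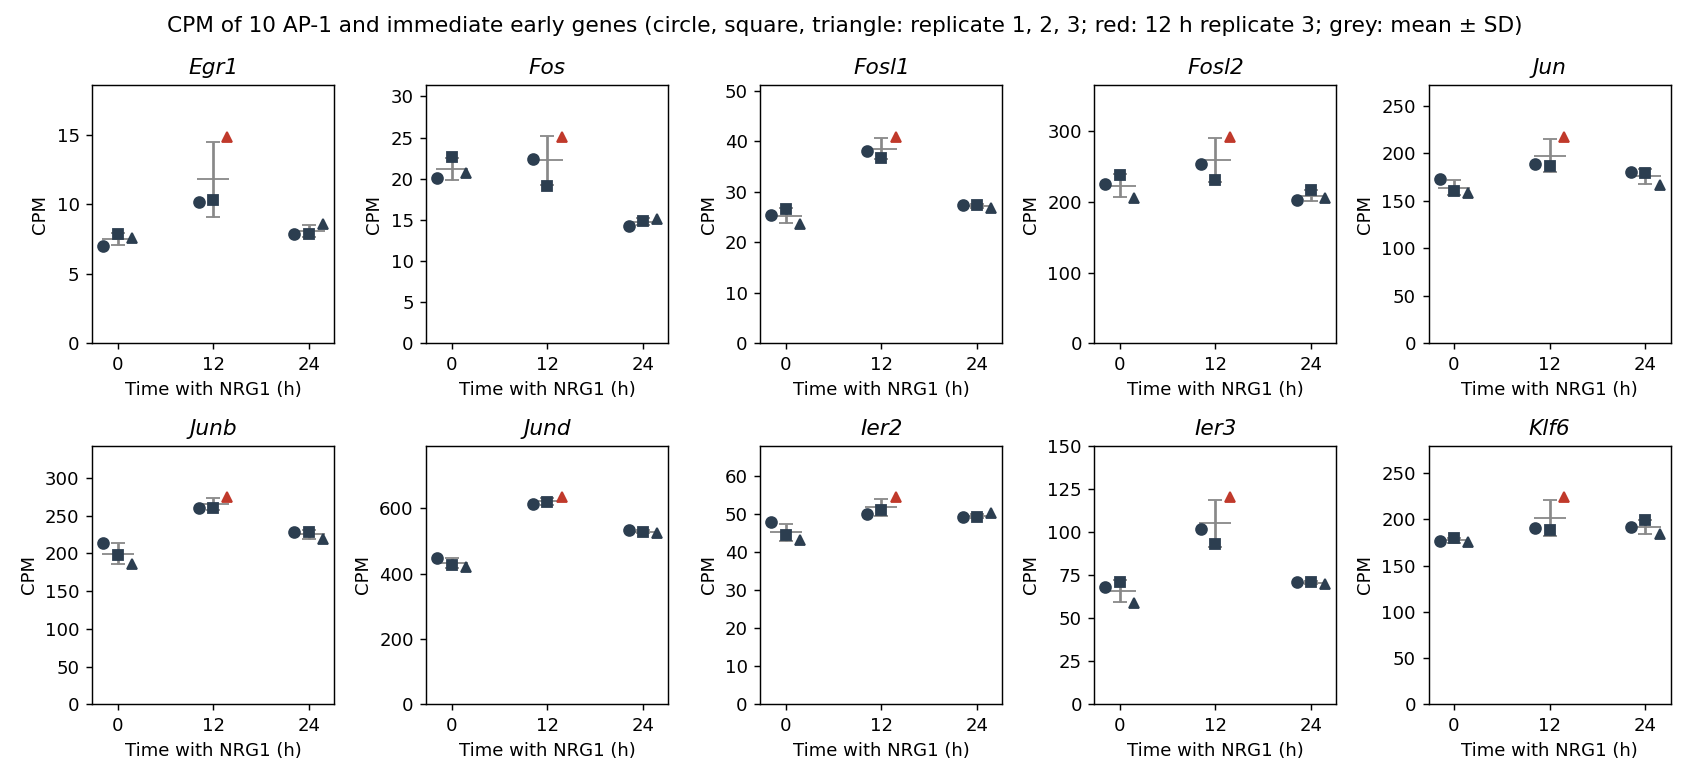
CPM of the 10 genes in each of the 9 libraries, with the time with NRG1 in hours on the x axis and a separate linear y axis from 0 for each gene; symbols mark the replicate and grey bars the mean ± SD of 3 libraries. The red triangle, 12 h replicate 3, is the highest 12 h point in all 10 panels, and the 24 h points of Fos lie below all its other points.

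The other immediate early genes were higher at 12 h as well. Egr1 encodes a zinc finger transcription factor. It had 7.03, 7.87 and 7.61 CPM at 0 h, 10.2, 10.3 and 14.9 at 12 h, and 7.86, 7.87 and 8.56 at 24 h. The 12 h libraries stood above all others, with replicate 3 far above its pair. Egr1 rose 1.56-fold at 12 h (0.65 ± 0.13, adjusted p = 0.00128) and fell by 0.54 ± 0.13 from 12 to 24 h (adjusted p = 0.0199). The 24 h level differed from that at 0 h by 0.11 ± 0.13 (adjusted p = 0.633). The fall to 24 h did not pass when any 1 of the 24 h libraries was left out, with -0.51, -0.52 and -0.58 (adjusted p = 0.084, 0.0763 and 0.0561) without replicates 1, 2 and 3, respectively.

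Ier3, a stress and growth factor response gene that affects cell survival, lies at chr17:35821684-35822923. It had 68.0, 70.9 and 58.6 CPM at 0 h, 102, 93.0 and 120.1 at 12 h, and 70.9, 71.1 and 69.5 at 24 h. The 12 h libraries were again apart from the others, and the 0 and 24 h ranges overlapped. Its 1.59-fold rise at 12 h was the largest of the 10 (0.67 ± 0.077, adjusted p = 1.07e-05). Ier3 fell by 0.57 ± 0.076 to 24 h (adjusted p = 0.000402), where it differed from 0 h by 0.10 ± 0.078 (adjusted p = 0.443).

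Ier2, an intronless immediate early gene at chr8:84661331-84662854, and Klf6, a zinc finger factor of the Kruppel-like family at chr13:5861482-5870394, had the smallest rises among those that passed. Ier2 had 47.9, 44.5 and 43.4 CPM at 0 h, 50.2, 51.1 and 54.5 at 12 h, and 49.4, 49.3 and 50.3 at 24 h. Klf6 had 177, 179.8 and 175 CPM at 0 h, 191, 189 and 224 at 12 h, and 192, 199.6 and 184 at 24 h. For both genes every 12 h and every 24 h library exceeded every 0 h library, and the 12 and 24 h libraries overlapped. At 12 h Ier2 rose by 0.20 ± 0.049 (adjusted p = 0.00678) and Klf6 by 0.18 ± 0.054 (adjusted p = 0.0193), and Klf6 did not pass without 0 h replicate 1 (0.18, adjusted p = 0.051). At 24 h neither passed against 0 h, with 0.14 ± 0.049 for Ier2 (adjusted p = 0.0688) and 0.11 ± 0.054 for Klf6 (adjusted p = 0.167). Against 12 h the 24 h values were -0.06 ± 0.049 (adjusted p = 0.502) and -0.07 ± 0.054 (adjusted p = 0.512).

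Across the 10 genes, 9 passed an adjusted p of 0.05 at 12 h, all higher, where 13.6% of the 11373 tested genes did so. The fold threshold of 1.5 was also met by 3 (Egr1, Fosl1 and Ier3), against 1.34% of tested genes. The median log2 fold change of the 10 was 0.34, beside -0.0028 for all tested genes. All 12 h libraries exceeded all 0 h libraries in 8 genes, as in 19.9% of tested genes. At 24 h against 0 h, 2 genes passed higher (9.67% of tested genes) and 1 lower (7.76%), with a median of 0.11. All 24 h libraries exceeded all 0 h libraries in 5 genes (17.6% of tested genes) and lay below them in Fos alone (17.9%). Past the fold threshold were 0 of the 10, in edgeR as in DESeq2, where 2.27% of tested genes were in edgeR, and 4 had an unadjusted p under 0.05. The number that passed was 2 without 0 h replicate 3, which took out Junb. From 12 to 24 h, 7 genes passed, all lower, against 3.06% of tested genes, and the median was -0.27. All 24 h libraries lay below all 12 h libraries in 8 genes (13.6%). The count of 7 was 4 without 24 h replicate 3. Over all tested genes, 348 passed as lower, and 125 to 486 did when 1 library was left out. Of the 10, only Fos also passed 1.5-fold from 12 to 24 h, against 0.0879% of tested genes. Without 12 h replicate 2 the number of the 10 past it was 3. A rise at 12 h followed by a fall to 24 h, both past the threshold, was seen in 6 genes (Egr1, Fosl1, Fosl2, Junb, Jund and Ier3) and in 2.15% of tested genes. The 12 and 24 h comparisons share the 0 h libraries, and the 12 h libraries enter the first and the last, so the 3 sets of values are not independent.

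**Figure D2:**
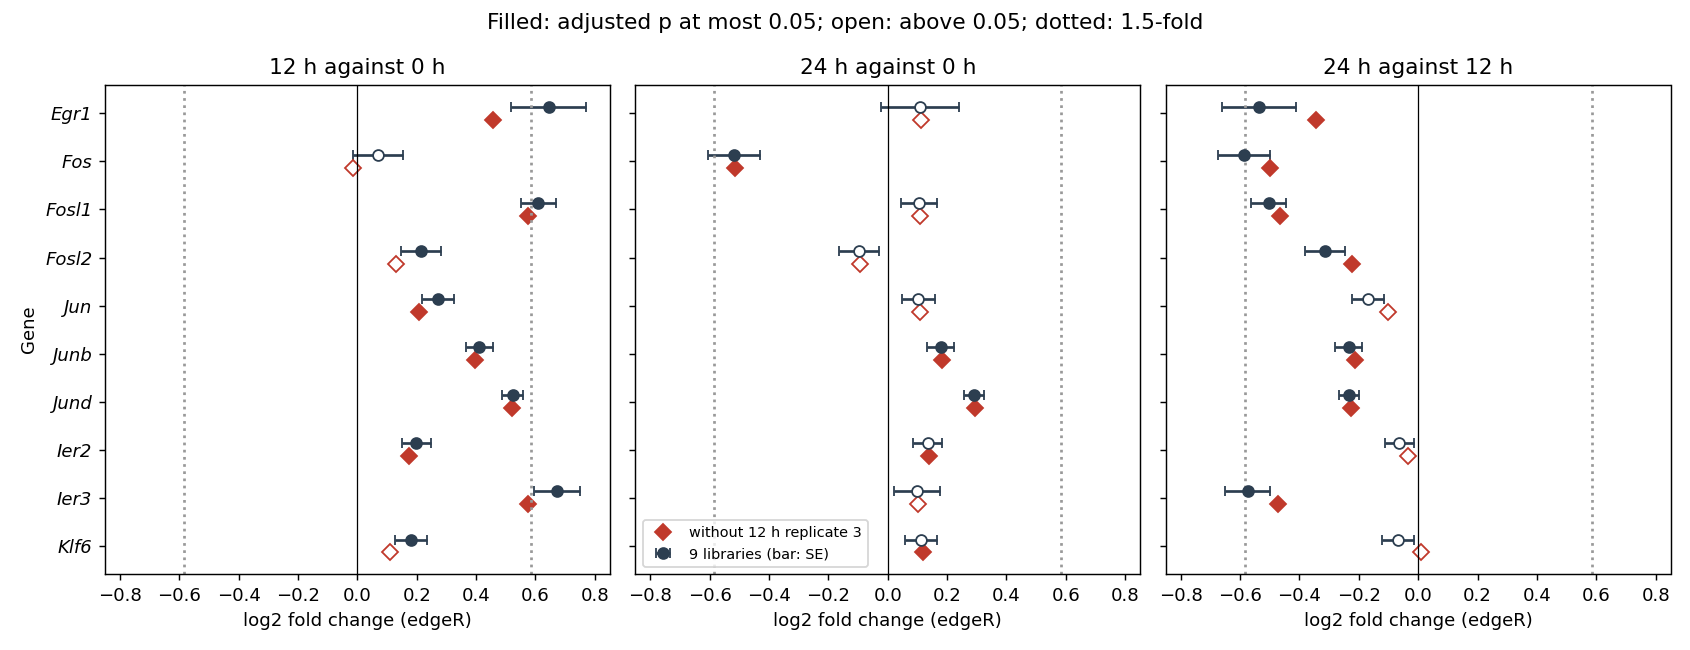
Log2 fold changes from edgeR for the 10 genes in the 3 comparisons, from all 9 libraries (circles, bars are SE) and without 12 h replicate 3 (diamonds); filled symbols have an adjusted p of at most 0.05 and dotted lines mark 1.5-fold. At 12 h every diamond lies to the left of its circle, and those of Egr1, Fosl1 and Ier3 lie inside the 1.5-fold line.

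The share of the 12 h rise carried by 12 h replicate 3 was then measured. On the log2 scale this library lay above the mean of the other 2 in all 10 genes, by 0.041 for Jund to 0.53 for Egr1, with a median of 0.23. It was the highest of the 3 in 10 of 10 genes, whereas among all tested genes it was the highest in 37.2%. The SD of the same deviation over all tested genes was 0.239, and the medians of the other 8 libraries over the 10 genes were between -0.12 and 0.07. With equal parts each of the 3 libraries would carry the same share of the summed rise in CPM. Replicate 3 carried 35.4% for Jund, 38.04% for Junb and 39.2% for Fosl1, close to an equal part. It carried 46.2% for Ier3, 46.3% for Ier2, 52.9% for Jun and 57.2% for Egr1. For Fosl2 and Klf6 the part was 64.0% and 64.9%. For Fos it exceeded the whole, 122.7%, because the other 2 libraries together lay below 0 h.

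**Figure D3:**
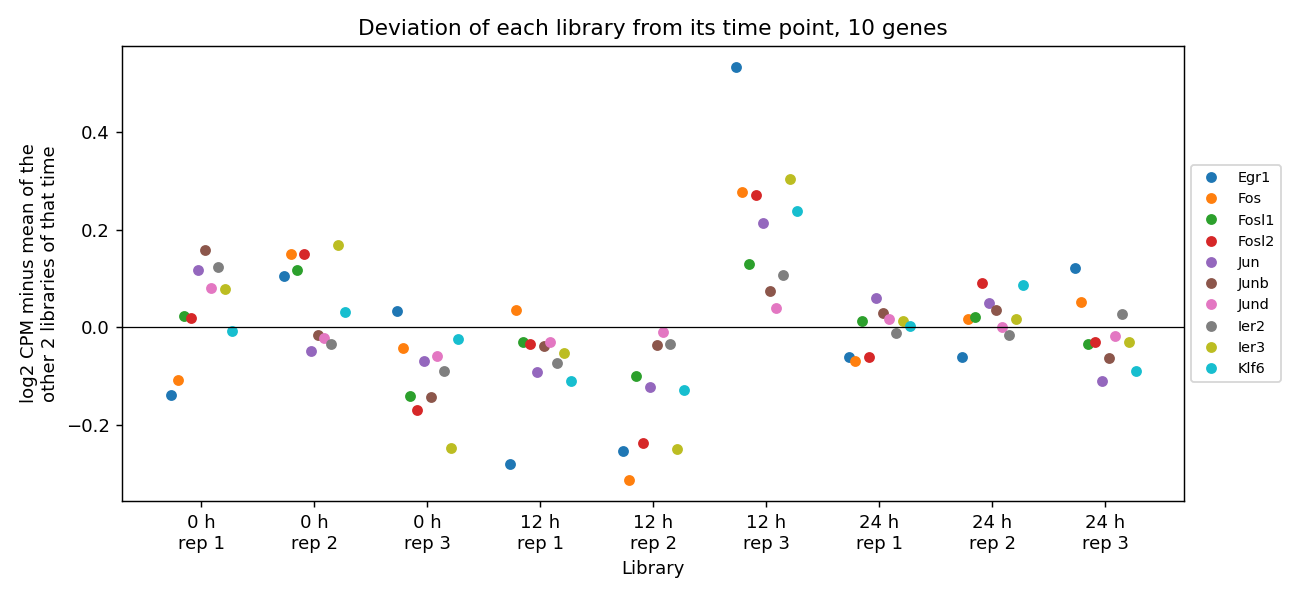
Difference on the log2 CPM scale between each library and the mean of the other 2 libraries of its time point, 1 point per gene and library for the 10 genes. Only 12 h replicate 3 has all 10 points above 0, from 0.041 (Jund) to 0.53 (Egr1).

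When 12 h replicate 3 was left out, 7 of the 10 genes still passed at 12 h, all higher, where 13.5% of 11520 tested genes did so, and the median was 0.30. Jund (0.52, adjusted p = 2.98e-08), Junb (0.40, adjusted p = 5.39e-06) and Fosl1 (0.58, adjusted p = 1.47e-06) hardly moved, and kept 96.9%, 92.9% and 91.2% of their rise in CPM. Ier3 kept 80.7% (0.58, adjusted p = 1.67e-06), Ier2 80.6% (0.17, adjusted p = 0.0177), Jun 70.6% (0.21, adjusted p = 0.00212) and Egr1 64.2% (0.46, adjusted p = 0.00254). The rises of Fosl2 (0.13, adjusted p = 0.0809) and Klf6 (0.11, adjusted p = 0.0537) no longer passed. Fos changed sign, to -0.015 (adjusted p = 0.923). Past 1.5-fold were 0 of the 10 (2.01% of tested genes), since Fosl1 and Ier3, both at 0.58, then lay just under that line. From 12 to 24 h, 7 genes still passed, all lower (4.22% of tested genes), with Fos at -0.50, Fosl1 at -0.47, Ier3 at -0.47 and Egr1 at -0.34 (adjusted p = 0.0435). The comparison of 24 h with 0 h uses this library only through the shared filter, scaling, adjustment and estimate of spread. There 5 genes passed, 4 higher (11.5% of tested genes) and 1 lower (8.98%), since Ier2 (adjusted p = 0.0354) and Klf6 (adjusted p = 0.0238) were added. The fall of Fos from 12 to 24 h was then under 1.5-fold.

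The makeup of AP-1 transcripts was compared per kilobase. The summed JUN family was 383 to 416 CPM per kb at 0 h, 539.5 to 567 at 12 h and 462 to 475 at 24 h. The summed FOS family was 41.9 to 47.6, 50.4 to 61.3 and 40.8 to 42.6 at the same times. JUN transcripts therefore outnumbered FOS transcripts per length by 8.24 to 9.35 times at 0 h, 9.24 to 10.8 times at 12 h and 11.1 to 11.7 times at 24 h. The ratio overlapped between 0 and 12 h and was higher in all 24 h libraries than in any other. Within the FOS family, Fosl2 made up 51.5% ± 0.718 at 0 h, 48.1% ± 0.935 at 12 h and 51.9% ± 0.709 at 24 h. The part of Fosl1 went from 27.8% ± 0.341 to 34.3% ± 1.55 and 32.3% ± 0.682. That of Fos went from 20.1% ± 0.909 to 17.0% ± 0.759 and 15.2% ± 0.448. The ranges of Fos did not overlap between any of the 3 times, and Fosb was under 1% throughout. Within the JUN family Jund held 65.3% ± 0.633, 67.8% ± 0.746 and 67.4% ± 0.550, Junb 21.8% ± 0.613, 21.0% ± 0.0788 and 20.8% ± 0.228, and Jun 12.9% ± 0.127, 11.3% ± 0.675 and 11.7% ± 0.333. These shares describe RNA and give no measure of the proteins or dimers. Jund and Fosl1 share 52.6% and 57.2% of their exonic bases with genes on the opposite strand, so their parts may hold other reads if counting ignored strand. The shares and ratios also depend on the exon lengths used, such as 1668 bases for Jund and 9680 for Fosl2.

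**Figure D4:**
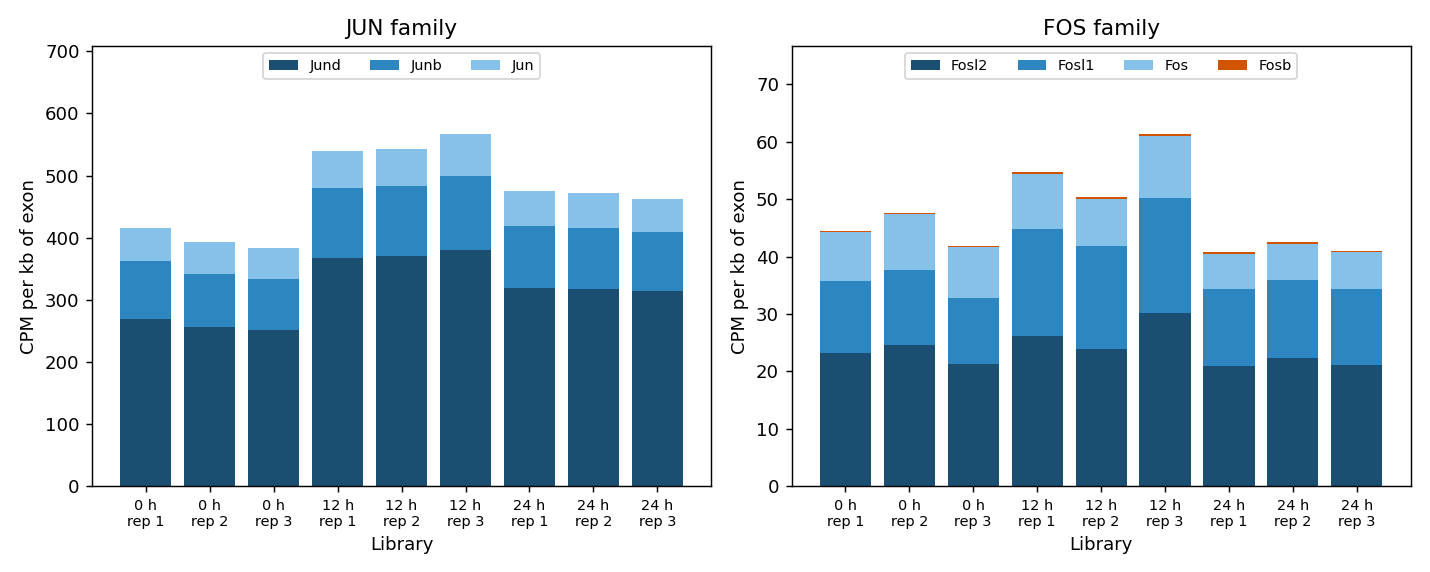
Stacked bars of CPM per kb of exon for the JUN family (left) and the FOS family (right) in each library; the y axes start at 0 and differ in scale. Jund is the largest part of every JUN bar and Fosl2 of every FOS bar, and the 12 h bars are the tallest in both panels.

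Over the 9 libraries, log2 CPM of the 10 genes correlated with one another with a median Pearson r of 0.80 in 45 pairs, from -0.03 (Fos and Ier2) to 0.99 (Fosl1 and Ier3). These values mix differences between times with those between replicates and share the same libraries, so they are descriptions only. Among 8413 other genes with at least 10 CPM, the closest to Fosl1 were Gbe1 (r = 0.99), Anxa2 (0.99) and Ier3 itself. Nearest to Ier3 were Limk1 (0.99) and Slc2a1 (0.99). Junb was closest to Tusc3 (0.99) and Jund to Rnf126 (0.99), which was also second for Junb. Fos was closest to Abhd18 (0.98), Fosl2 to Plod2 (0.98), Ier2 to Cap1 (0.98) and Jun to Lrrfip1 (0.97). Tiparp, itself an immediate early gene, came second for Jun (0.96). Egr1 was closest to Rab5b (0.97) and Klf6 to Ptpn14 (0.97).

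Other genes of the pathway were taken from 5 lists, of which 81 genes were tested. Among 32 other immediate early genes, 15 rose at 12 h (13.6% of all tested genes did) with a median of 0.17, and 0 passed as lower (11.9%). Without 12 h replicate 3, 14 passed as higher (13.5% of 11520 tested genes). There 2 passed as lower (1003 to 1306 over all genes when 1 library was left out). At 24 h against 0 h, 9 were higher (9.67% of all tested genes), with a median of 0.07. From 12 to 24 h, 4 fell (3.06% of all tested genes) with a median of -0.04. That count was 2 without any 1 of the 0 h libraries or 24 h replicate 2, and 1 without 24 h replicate 1 or 3. Over all genes 348 fell, and 125 to 486 did when 1 library was left out. Of the 32 listed genes, Plk3, a polo-like kinase of the stress response, rose the most, from 27.0, 28.6 and 27.8 CPM at 0 h to 45.8, 46.8 and 80.1 at 12 h, with 36.3, 44.4 and 38.5 at 24 h. Its 12 h libraries did not overlap the others, and replicate 3 was far above its pair. The log2 fold change was 1.04 ± 0.15 at 12 h (adjusted p = 0.000109) and 0.74 without that library (adjusted p = 3.29e-07). Dusp1, a phosphatase that inactivates MAP kinases, had 32.8 ± 0.677, 37.4 ± 4.98 and 35.7 ± 3.01 CPM and did not pass (0.18 ± 0.079 at 12 h, adjusted p = 0.101).

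Of 10 tested AP-1 partners and relatives, 3 rose at 12 h, beside 13.6% of all tested genes (median 0.12), namely Atf3, Maff and Jdp2, of which the last 2 are named because of the small count. Atf3, a stress-induced bZIP factor that pairs with JUN proteins, had 31.1, 44.3 and 31.7 CPM at 0 h, 50.5, 46.5 and 86.4 at 12 h, and 33.8, 43.7 and 36.1 at 24 h. The 12 h libraries were the highest, 2 of them only slightly above 0 h replicate 2. Atf3 rose by 0.77 ± 0.18 at 12 h (adjusted p = 0.00492) and by 0.45 without 12 h replicate 3 (adjusted p = 0.00611). Its fall of 0.69 ± 0.18 to 24 h (adjusted p = 0.0358) was -0.36 without that library, which did not pass (adjusted p = 0.052). Maff rose by 0.35 (adjusted p = 0.000213) and Jdp2, whose product represses AP-1 sites, by 0.32 (adjusted p = 0.00245).

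Upstream, 3 of 22 tested genes of serum response factor, its ETS partners and the MAP kinase chain rose at 12 h (median 0.02), the same share, 13.6%, as among all tested genes. They were Elk3, Map2k1 and Rps6ka1, named because of the small count. Srf was 49.5 ± 2.80, 47.8 ± 4.38 and 46.8 ± 0.451 CPM (12 h difference -0.05 ± 0.061, adjusted p = 0.576). Among 7 tested genes whose products bind or turn over EGR1 and JUN proteins, 2 rose and 2 fell at 12 h (median -0.04), where 13.6% of all tested genes rose and 11.9% fell. The number that rose was 1 without 0 h replicate 2 or 3 or 12 h replicate 1. Nab2, an EGR1-induced corepressor of EGR1, rose from 16.2 ± 1.69 to 20.4 ± 0.831 CPM (0.33 ± 0.090, adjusted p = 0.0118), with 42.2% of its exonic bases shared with Stat6, Gm16229 and Nemp1 on the opposite strand, and 0.28 without 0 h replicate 3, which did not pass (adjusted p = 0.0624). Men1, whose product binds JunD, rose by 0.12 (adjusted p = 0.0207). Fbxw7, part of a ubiquitin ligase that degrades JUN, fell by 0.33 (adjusted p = 0.000249), and Pdcd4, an inhibitor of AP-1 activity, fell by 0.22 (adjusted p = 0.00555). These 3 were named after their values were seen.

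Of 10 tested classical AP-1 target genes, 7 rose at 12 h (median 0.23), beside 13.6% of all tested genes. Another 2 were lower, down to -0.68, and 0 passed as lower. The listed targets Mmp3, Mmp9, Mmp13, Sprr1a and Il6 had at most 3 counts in any library and were not tested. At 24 h against 0 h, 5 passed as higher (median 0.27), beside 9.67% of all tested genes, and 3 without 0 h replicate 1. Hmox1, heme oxygenase, went from 11.2 ± 0.425 to 19.0 ± 4.0 and 15.1 ± 0.407 CPM, a 12 h rise of 0.76 ± 0.11 (adjusted p = 9.99e-05). Lif, a cytokine of the interleukin-6 family, went from 16.5 ± 1.95 to 25.6 ± 5.44 and 20.1 ± 2.01 CPM, a 12 h rise of 0.64 ± 0.12 (adjusted p = 0.00107). Both rises were smaller without 12 h replicate 3, 0.60 and 0.46, and passed.

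**Figure D5:**
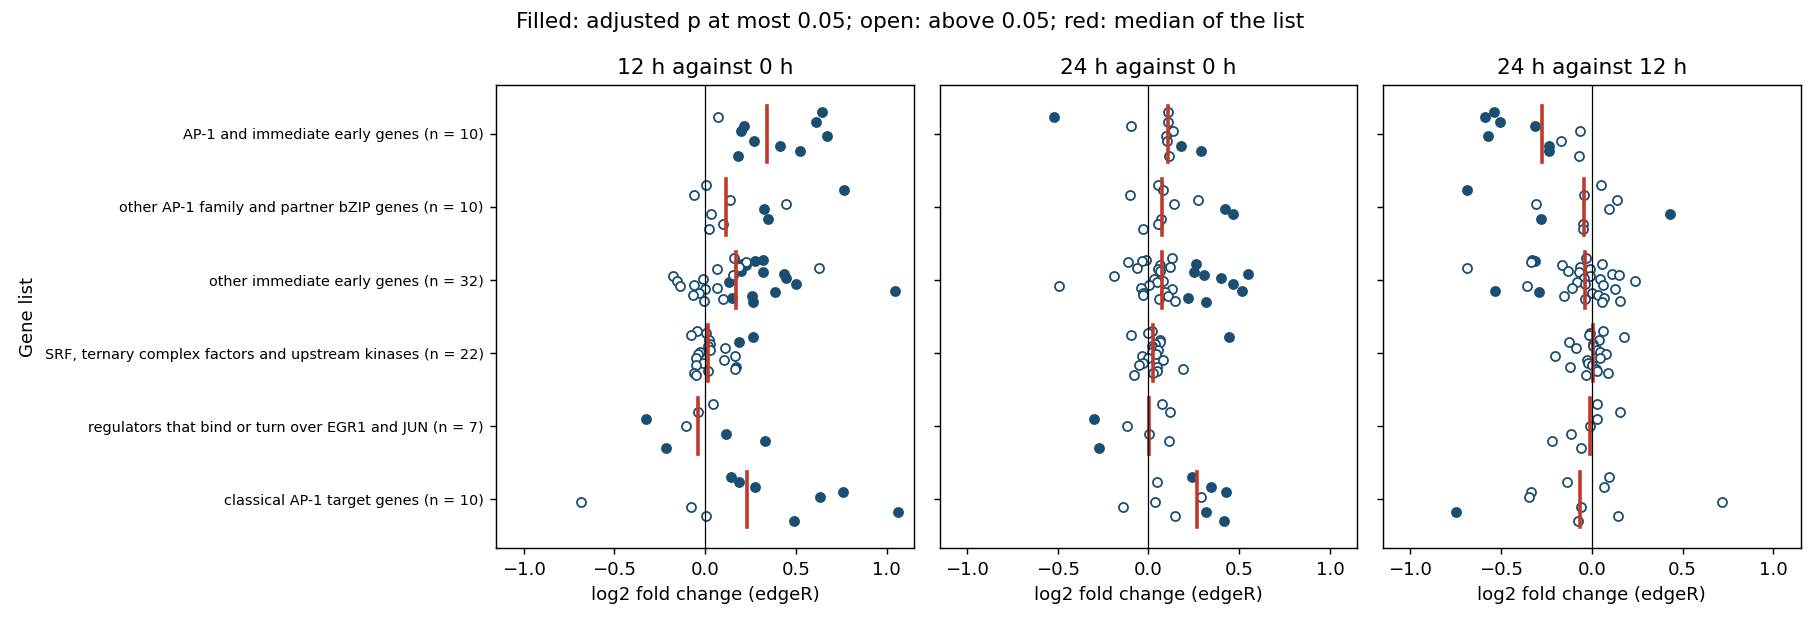
Log2 fold changes from edgeR of every tested gene in the 10 genes followed here and in the 5 pathway lists, in the 3 comparisons; filled points have an adjusted p of at most 0.05 and red lines are list medians. At 12 h the red line of the 10 genes (0.34) lies to the right of those of the 5 lists, which run from -0.04 to 0.23.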

How the data were processed

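RNA-seq libraries of MyC-CaP cells were sequenced as paired ends. Per the study's methods, the authors trimmed adaptors with Cutadapt, aligned reads to GRCm38.p6 with STAR and counted them per gene with featureCounts. The deposited values are whole-number raw counts, not normalized. Whether strand was used in counting was not stated, so overlapping genes can share reads.

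Counts were filtered with filterByExpr (11373 of 15552 genes kept), scaled by TMM and fitted for all 9 libraries together in edgeR 4.0.16 under R 4.3.3 (glmQLFit, glmQLFTest). P-values were adjusted by Benjamini-Hochberg over all tested genes. A gene passed at an adjusted p of at most 0.05. A 1.5-fold change was the second threshold. CPM were computed after TMM, log2 CPM with a prior count of 2, and CPM per kb with the union of exons in a GENCODE annotation of GRCm38. SE were derived from the log2 fold change and its F statistic. The p-values measure the spread between 3 libraries per time of 1 cell line, labelled biological replicates. The study's methods describe plating in triplicate wells, so whether the replicates were independent experiments is not known.

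The 10 members and the lists were chosen with earlier results of these data known. All members were named. From the lists, genes past both thresholds in any comparison with at least 1 CPM were named, at most 8 per list, plus Fosb, Atf3, Dusp1, Srf and Nab2. On simulated 12 h data, 93 of 100 genes changed 2-fold and 65 of 100 changed 1.25-fold passed among 11304, with 12 false passes. All simulated libraries had the same spread for a given gene, so the simulation held no deviating library such as 12 h replicate 3. Alternatives used other size factors, limma 3.58.1, DESeq2 1.42.0, other filters, a replicate block, glmTreat and fits leaving out libraries. Of the listed symbols, 93 of 96 were in the table and the rest were not analysed here. Of the genes these rules name, 1 is not reported here, nor is 1 of the luminal markers.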

Additional observations from a re-analysis of the deposited data

How the results depend on the processing

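The 10 genes held their direction and side of the threshold in 599 comparisons of a gene with an alternative, lost the call in 16, gained one in 11 and changed sign in 4. Fits with DESeq2, RLE size factors and total counts left 9, 3 and 7 of the 10 passing at 12 h, at 24 h and from 12 to 24 h. A replicate block also left 9, 3 and 7 passing, and 3, 0 and 1 past 1.5-fold; over all genes it gave 2956, 2039 and 609 against 2896, 1982 and 572. Same-numbered libraries of different times showed little shared deviation (r from -0.0744 to 0.131, mean 0.0336, against a mean of -0.0168 for other pairs). With 3 libraries at each time, this cannot show whether the numbers pair the samples.

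At 12 h the number of the 10 past 1.5-fold, 3, was 0 with glmTreat, which tests against that fold itself, and 0 to 3 when 1 library was left out, with 0 without 12 h replicate 3. At 24 h the number passing, 3, was 5 with only those 2 time points fitted and 2 to 5 when 1 library was left out. From 12 to 24 h the number passing, 7, was 4 to 7 when 1 library was left out, and the 1 past 1.5-fold (Fos) was 0 with total counts, limma voom with or without quality weights, a filter of 1 CPM in 3 libraries and glmTreat, and 0 to 3 when 1 library was left out. In the 5 lists, the 5 genes past 1.5-fold at 12 h were 3 with quality weights, 1 with glmTreat and 3 to 5 when 1 library was left out. From 12 to 24 h, the 8 list genes that passed were 14 without a filter and 3 to 10 when 1 library was left out, and the 2 past 1.5-fold were 1 with DESeq2, 1 with quality weights, 0 with glmTreat and 1 to 3 when 1 library was left out. Over all genes, glmTreat called 4, 6 and 0 genes against 261, 258 and 33, and from 12 to 24 h 950 passed without a filter and 971 with quality weights, against 572. With 1 library left out, 2338 to 2763 of all genes passed at 12 h, 1323 to 2359 at 24 h and 214 to 879 from 12 to 24 h. In the same order, 200 to 280, 182 to 279 and 16 to 36 were past 1.5-fold.

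Further alternatives were chosen after seeing the data. Removing a trend on GC content or on length lowered the number past 1.5-fold from 12 to 24 h from 1 to 0. Without both 12 h replicate 3 and 0 h replicate 1, 1 of the 10 was past 1.5-fold at 12 h, 6 passed at 24 h and 0 were past 1.5-fold from 12 to 24 h, while the lists had 2 genes past 1.5-fold at 12 h, 13 that passed from 12 to 24 h and 1 past 1.5-fold there. Over all genes, 201 were then past 1.5-fold at 12 h against 261, and 2192 passed at 24 h against 1982. From 12 to 24 h, 1164 of all genes then passed against 572, and 43 were past 1.5-fold against 33. Sign changes were all of values that did not pass. In that fit Fos at 12 h was -0.059, Atf3 at 24 h -0.0072, and from 12 to 24 h Klf6 was 0.014, Dusp1 0.047 and Srf 0.0011. With 1 library left out, Fos at 12 h ranged from -0.015 to 0.16, Srf at 12 h from -0.10 to 0.024, Atf3 at 24 h from -0.029 to 0.28, and from 12 to 24 h Klf6 ranged from -0.11 to 0.0090, Dusp1 from -0.13 to 0.042 and Srf from -0.11 to 0.022. The causes were not tested beyond what each fit leaves out.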
